A study of Mus musculus with 33 samples.

Results

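The gRNAs described here are 435 CRISPR guide RNAs that target the middle of the body of Zfp42 in mouse embryonic stem cells. They are the gRNAs of the Zfp42 screen whose interval midpoint lies at mm10 chr8:43297000-43305008, out of 3918 in the count table, of which 3908 have a genomic position and 10 target GFP. RefSeq places Zfp42 (also called Rex1) at chr8:43295067-43307009 on the minus strand, so these targets lie 2001 to 10009 bp inside the gene, counted from its 5' end. No other gene of that annotation overlaps the 8009-bp region, and exons, introns and UTRs were not used here.

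Zfp42 encodes a zinc finger protein whose expression marks undifferentiated mouse embryonic stem cells and is lost as they differentiate. A gRNA directs the nuclease Cas9 to a matching site, where repair of the cut often leaves a small insertion or deletion. In a screen of this kind, a gRNA that is more frequent among cells with low reporter signal than in the unsorted population marks a position where mutation may lower expression of the reporter, and the body of a gene can hold coding sequence as well as control elements.

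Cells of the Zfp42-GFP line, whose GFP stands in place of sequence at the start site of Zfp42 transcription, were electroporated with the gRNAs. Genomic DNA was taken from cells sorted as GFP-negative, from cells sorted as GFP-medium and from the unsorted bulk population, with 4 replicates of each and thus 12 libraries. The cells of all groups held a placeholder guide in ROSA26 and were grown in medium with serum, LIF, a GSK-3 inhibitor and U0126, an inhibitor of MEK. The labels tie each replicate number to a replicate of the same reporter line and say neither how these replicates were separated nor how much of Zfp42 the GFP sequence replaced, so the p-values are about the spread among these libraries, which may be technical. Sums of gRNA counts, without the placeholder, were 252023 to 487732 in GFP-negative, 121455 to 268197 in GFP-medium and 39096 to 82959 in bulk libraries. The placeholder took 1.22% and 1.09% of all counts in bulk replicates 1 and 2, and 22.5% and 23.5% in replicates 3 and 4, so values are also given for these pairs of replicates apart.

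The targets tile the region densely. Neighbouring midpoints were a median of 11 bp apart, the widest stretch without a midpoint was 262 bp, and 391 of the 435 intervals overlapped another one of the set. Their intervals were 23 bp long in 370 gRNAs and 22 bp in 65. Of the 435 gRNAs, 250 (57.5%) had no count in any of the 12 libraries, close to the 56.2% of all 3918, and for these nothing can be said. The other 185 were all counted in bulk, 158 of them in all 4 bulk libraries. Of these 185, 121 were found in at least 1 GFP-negative library, 150 in at least 1 GFP-medium library, 113 in both sorted populations and 27 in bulk alone. At the edges of the region, chr8:43296999-43297021 had 5 to 13 counts in the bulk libraries, 2 counts in 1 GFP-medium library and none in GFP-negative ones, while the last gRNA inside at the other edge, chr8:43304978-43305000, and the nearest outside, chr8:43296963-43296985 and chr8:43305006-43305028, were never counted.

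Summed, the middle gene body gRNAs took a similar mean part of all gRNA counts in every population, but GFP-medium replicates differed in direction from bulk. They held 14.8%, 10.7%, 15.2% and 12.3% of counts in GFP-negative replicates 1 to 4. They held 18.2%, 13.1%, 9.53% and 8.58% in GFP-medium replicates, and 12.8%, 11.8%, 12.3% and 11.5% in bulk replicates. The means were 13.3% ± 2.12 in GFP-negative, 12.4% ± 4.35 in GFP-medium and 12.1% ± 0.590 in bulk cells (SD, n = 4 each), and both sorted populations overlapped with bulk. On the log2 scale the ratio of mean shares to bulk was 0.13 for GFP-negative and 0.03 for GFP-medium cells. Within replicates 1 and 2 the mean GFP-negative share was 12.7% against 12.3% in bulk, and within replicates 3 and 4 it was 13.8% against 11.9%. For GFP-medium cells the same pairs gave 15.7% against 12.3% and 9.05% against 11.9%. GFP-medium replicates 1 and 2 each lay above every bulk library, and replicates 3 and 4 below every one. The near-equal GFP-medium and bulk means thus averaged opposite directions.

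A share depends on what the other gRNAs take. The 10 GFP-targeting gRNAs, the positive controls, took 23.4% ± 5.74 of GFP-negative, 0.384% ± 0.391 of GFP-medium and 0.589% ± 0.198 of bulk counts. With these left out of the total, the middle gene body gRNAs held 18.8%, 14.9%, 21.1% and 14.7% of the remaining GFP-negative counts, mean 17.4% ± 3.10, against 12.2% ± 0.600 in bulk. On this scale every GFP-negative library lay above every bulk library, and the log2 ratio of the means was 0.51. The GFP-medium share remained at 12.4% ± 4.34 and overlapped with bulk (log2 ratio 0.03).

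A further scale, added after the data were seen, sets the counts against those of the 2805 gRNAs that target neither the gene nor the 2000 bp on either side of its 5' end. Per 100 such counts, the middle gene body gRNAs had 54.6, 37.0, 60.5 and 39.0 counts in GFP-negative replicates 1 to 4. They had 34.6, 22.7, 15.8 and 13.1 in GFP-medium and 18.8, 17.5, 18.1 and 16.8 in bulk replicates. The GFP-negative libraries thus stood above all bulk libraries, with a log2 ratio of the means of 1.42, and the GFP-medium libraries overlapped with bulk at 0.27. The 2805 reference gRNAs themselves took 28.2% ± 2.78 of GFP-negative, 59.1% ± 5.45 of GFP-medium and 67.9% ± 0.248 of bulk counts. A ratio on this scale therefore holds their lower share as well as any change of the set. On the same scale GFP-negative over bulk gave 1.52 for the 453 gRNAs within 2000 bp of the 5' end and 2.93 for the 215 gRNAs at the 3' end of the gene. GFP-medium over bulk gave 0.95 for the gRNAs around the 5' end, whose GFP-medium and bulk libraries did not overlap, and 0.23 for those at the 3' end, whose libraries did. These differences between the 3 groups of gRNAs were not tested.

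The sums varied along the region. In tiles of 1000 bp, from the one nearest the 3' end of the gene to the one nearest its 5' end, the mean share of all counts in GFP-negative libraries was 2.28, 1.82, 1.39, 1.11, 0.653, 0.628, 0.639 and 1.12 times that in bulk. The first tile, which starts at 43297000 and holds 24 gRNAs, took 2.77%, 0.592%, 2.48% and 1.80% of counts in GFP-negative replicates 1 to 4, against 0.743% to 0.903% in bulk libraries. GFP-negative replicate 2 thus lay below all bulk libraries while the other 3 lay above them. The tile at 43298000, with 31 gRNAs, ranged more widely, from 0.00317% in GFP-negative replicate 1 to 3.05% in replicate 3, against 0.893% to 1.01% in bulk. The tile at 43303000, with 100 gRNAs, was the only one whose GFP-negative and bulk libraries did not overlap on this scale, at 1.08% to 2.79% against 2.91% to 3.37%. In GFP-medium cells it took 0.903% to 2.98%, and its GFP-medium share was below the bulk share of the same replicate number in all 4 pairs. With GFP-targeting gRNAs left out of the total, its GFP-negative share of 1.38% to 3.86% did overlap with bulk.

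Split in the middle, a choice made after the data were seen and therefore not tested, the 4 tiles toward the 3' end (168 gRNAs) held 8.74%, 4.62%, 8.77% and 7.14% of GFP-negative counts, mean 7.32% ± 1.95, against 4.75% ± 0.256 in bulk. The 4 tiles toward the 5' end (267 gRNAs) held 5.94% ± 0.526 of GFP-negative counts against 7.36% ± 0.497 in bulk, with each GFP-negative library below each bulk library. Relative to the gRNAs outside the gene and the 5' end, both parts had more counts in GFP-negative than in bulk libraries, with log2 ratios of 1.92 toward the 3' end and 0.98 toward the 5' end and no overlap of libraries in either. The direction for the part toward the 5' end therefore depended on the scale. In GFP-medium cells the part toward the 3' end held 4.70% ± 0.888, near its share in bulk, and the part toward the 5' end ranged from 3.65% to 14.7%.

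Few gRNAs made up these sums in sorted cells. Of the middle gene body gRNAs, 53, 72, 63 and 71 were detected in GFP-negative replicates 1 to 4 and 73, 113, 82 and 88 in GFP-medium replicates, against 173 to 182 in bulk libraries, although the sorted libraries were the deeper ones. In GFP-negative libraries 16 to 31 gRNAs held 90% of the counts of the set, in GFP-medium libraries 18 to 40, and in bulk libraries 110 to 113. The composition also changed between replicates. Among the 47 gRNAs counted in 3 or 4 GFP-negative libraries, the highest library held a median of 70.9% of the gRNA's summed CPM (counts per 1000000 gRNA counts of the library). That median was 69.2% for the 66 gRNAs in 3 or 4 GFP-medium libraries and 39.9% for the 182 in 3 or 4 bulk libraries. How many cells were sorted is not stated in the sources at hand, and the part of that number in this unevenness was not tested.

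Recurrence across replicates gives a view that a single very abundant gRNA cannot dominate. Among gRNAs with any count, 47 of the 185 in the middle gene body (25.4%) were found in 3 or 4 GFP-negative libraries, against 77 of the 1245 (6.18%) outside the gene and the 5' end. For comparison, the figure was 61 of 196 (31.1%) around the 5' end and 51 of 83 (61.4%) at the 3' end. Library by library, 28.6%, 38.9%, 34.1% and 38.4% of the counted middle gene body gRNAs appeared in GFP-negative replicates 1 to 4, against 13.1%, 23.7%, 18.5% and 17.5% of those outside. The middle gene body was higher in 4 of 4 replicates. A gRNA that is frequent in bulk is more likely to be sorted, so the counted gRNAs of the table were also split by mean bulk CPM into 3 classes of equal size. In the highest class 35 of 70 middle gene body gRNAs (50%) recurred in 3 or 4 GFP-negative libraries against 63 of 385 outside (16.4%), in the middle class 12 of 63 (19.0%) against 13 of 405 (3.21%), and in the lowest class 0 of 52 against 1 of 455 (0.220%). In the highest class the gRNAs around the 5' end recurred at nearly the same rate, 37 of 75 (49.3%), and those at the 3' end at 32 of 40 (80%).

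In the 4 tiles toward the 3' end 22 of 87 counted gRNAs (25.3%) recurred in 3 or 4 GFP-negative libraries, and in the 4 toward the 5' end 25 of 98 (25.5%), but the tiles toward the 5' end hold more gRNAs of high bulk abundance. Within the highest class the shares were 16 of 28 (57.1%) toward the 3' end and 19 of 42 (45.2%) toward the 5' end, within the middle class 6 of 30 (20%) and 6 of 33 (18.2%), and within the lowest class 0 of 29 and 0 of 23. In at least 1 GFP-negative library 60 of 87 (69.0%) were found toward the 3' end and 61 of 98 (62.2%) toward the 5' end, with 26 of 30 (86.7%) and 19 of 33 (57.6%) in the middle class. In GFP-medium cells 66 of the 185 (35.7%) were found in 3 or 4 libraries, against 251 of 1245 (20.2%) outside the gene and the 5' end. Shares of recurring gRNAs are descriptions of these libraries, and no test was made over the set.

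In 15 of the 435 gRNAs a count was seen in all 4 GFP-negative libraries, against 95 of all 3918. Of the 8 tiles, the one at 43303000, with 100 gRNAs, held 5 of the 15. The one at 43300000, with 69 gRNAs, held 4. One of the 15, chr8:43303699-43303721, chosen here after its values were seen, was unusually even at 813, 912, 952 and 825 CPM in GFP-negative replicates, against 4.72, 716, 0 and 195 CPM in GFP-medium and 1278, 2314, 1773 and 1023 CPM in bulk replicates. Its GFP-negative libraries all lay above the GFP-medium and below the bulk ones. It was the 1 gRNA of the 435 (0.230%) in which all GFP-negative libraries lay above all GFP-medium libraries, against 0.383% of all 3918 gRNAs.

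No single gRNA of the middle gene body was called enriched in GFP-negative over bulk cells. A quasi-likelihood test in edgeR over all 12 libraries, with Benjamini-Hochberg adjustment at 0.05, was possible for 1342 gRNAs of the table that passed a filter on low counts, 154 of the 435 among them. Of these 154, 0 were enriched and 45 (29.2%) depleted, against 0.596% and 44.6% of all 1342. At an unadjusted p under 0.05 also 0 were enriched, against 0.82% of all. DESeq2 called 0 enriched and 49 (31.8%) depleted, against 0.894% and 46.7% of all, and gave no adjusted p for 32 of the 154. Limma-voom called 0 and 23 (14.9%), against 0.596% and 20% of all. The 8 gRNAs that edgeR called enriched in the whole table all target GFP. Without any filter, 0 of the 435 had every GFP-negative library above every bulk library, against 0.408% of all 3918. In 70 of the 435 (16.1%) every GFP-negative library lay below every bulk library, against 22.6% of all 3918.

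The median fitted log2 fold change of GFP-negative over bulk was -0.70 for the 154 tested gRNAs of the middle gene body, against -4.06 for all 1342, -0.33 around the 5' end and 1.78 at the 3' end. Among the 45 called depleted, 36 were at 0 in all 4 GFP-negative libraries, so their fold is only a lower bound. The sign of this median depended on the scaling of the libraries. With TMMwsp scaling, a variant of TMM for counts with many zeros, it was 1.10, against -2.27 for all tested gRNAs. With size factors from DESeq2 it was -2.01, against -5.32. Relative to the median of all tested gRNAs, the middle gene body gRNAs stood 3.36 higher with TMM, 3.37 with TMMwsp and 3.31 with DESeq2 size factors, and 1.32 higher in limma-voom. Per tile the edgeR medians were 1.07, 0.42, 0.44, -0.61, -0.62, -1.90, -1.87 and -1.39 from the 3' to the 5' side. The tile at 43303000, which had the most tested gRNAs, held 14 of the 45 depleted ones among its 36 tested. Of all 1342 tested gRNAs, 44.6% were depleted.

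The 4 gRNAs with the highest mean GFP-negative level held 18.0% of the GFP-negative counts of the set, taken over mean shares, and no gRNA of the 4 lay above bulk in all replicates. The first, chr8:43298784-43298806, had 0, 0, 15153 and 15388 CPM in GFP-negative replicates 1 to 4, 0, 0, 659 and 1946 CPM in GFP-medium and 754, 12.1, 714 and 921 CPM in bulk replicates. It was thus absent from both sorted populations of replicates 1 and 2. Its GFP-medium level lay below the bulk level in replicate 3 and above it in replicate 4. GFP-negative levels were far above bulk in replicates 3 and 4. The log2 fold change over bulk was 3.91 (adjusted p = 0.258 by edgeR), and -1.52 with the replicate number as a block (adjusted p = 0.616 by edgeR).

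The gRNA chr8:43297262-43297283 was counted in all 4 GFP-negative libraries, with 14096, 3363, 6545 and 183 CPM, against 755, 3147, 16.5 and 0 CPM in GFP-medium and 1324, 1254, 1589 and 205 CPM in bulk. In replicates 1 to 3 the GFP-negative level exceeded the bulk level, and in replicate 4 it did not. Its log2 fold change over bulk was 2.95 (edgeR adjusted p = 0.320), and 1.89 with the replicate block.

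The gRNA chr8:43299695-43299717 had 18959, 205, 1489 and 0 CPM in GFP-negative replicates, 4.72, 3397, 3112 and 0 CPM in GFP-medium replicates, against 1401, 494, 576 and 767 CPM in bulk. One GFP-negative library far above the others carried its mean. The gRNA chr8:43304412-43304433 had 14.1, 11951, 8264 and 0 CPM in GFP-negative replicates, against 156, 317, 5039 and 101 CPM in GFP-medium and 1555, 1796, 1267 and 1304 CPM in bulk replicates. The log2 fold changes of GFP-negative over bulk were 2.97 and 2.71, with edgeR adjusted p-values of 0.360 and 0.378. With the replicate block they were 0.48 and -0.70, so the sign of the second turned.

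The 3 depleted gRNAs with the largest fitted decrease are near neighbours, 2810 to 2863 bp inside the gene. All 3 were at 0 in GFP-negative libraries, so their rank follows their bulk level and their closeness is no result about position. Of the 10 gRNAs of the set highest in bulk, 1 lies in the 4 tiles toward the 3' end. A gRNA at 0 in all sorted libraries, here and below, passed the filter on low counts through bulk alone, which favoured a decrease. No count of chr8:43304179-43304201 was seen in any sorted library, against 847, 1471, 967 and 1586 CPM in bulk replicates. This is at least 120-fold lower in GFP-negative cells (adjusted p = 0.00459 by edgeR) and at least 69.3-fold lower in GFP-medium cells (adjusted p = 0.0125 by edgeR). Bounds of this kind put a population without counts at 3 counts per library and cover counting error only. They compare means over libraries, so 1 high library in the other population raises them. The overlapping gRNA chr8:43304189-43304210 was at 0 in all GFP-negative libraries and at 0, 2498, 41.2 and 377 CPM in GFP-medium ones, against 2756, 1169, 737 and 1279 CPM in bulk. It was at least 147-fold lower in GFP-negative than in bulk cells (adjusted p = 0.00690 by edgeR), and its GFP-medium libraries overlapped with bulk (adjusted p = 0.974 by edgeR). The third, chr8:43304135-43304157, was at 0 in all GFP-negative libraries and at 0, 26.1, 3985 and 0 CPM in GFP-medium ones, against 1201, 1772, 1382 and 742 CPM in bulk (at least 126-fold lower in GFP-negative cells, adjusted p = 0.00954 by edgeR).

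Neighbouring targets did not always share an outcome. Among the 185 counted gRNAs there were 129 pairs with overlapping intervals, from 122 gRNAs. Both gRNAs were found in GFP-negative cells in 58 pairs, 1 of the 2 in 34 and neither in 37. In 10 pairs the 2 gRNAs differed by 3 or 4 in the number of GFP-negative libraries that held them. In 22 pairs the intervals shared 20 bp or more, and of these 10 had both, 7 had 1 and 5 had neither gRNA in GFP-negative cells. Whether reads could be assigned to the wrong member of such a pair cannot be judged without the gRNA sequences, which were not used here.

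A pair of this kind lies at 43303788. The gRNA chr8:43303788-43303810 had 4215, 224, 5499 and 1694 CPM in GFP-negative replicates, 5386, 1436, 1375 and 397 CPM in GFP-medium and 1185, 2338, 1451 and 1074 CPM in bulk replicates. The gRNA that starts 1 bp further, chr8:43303789-43303810, had 3.52, 10.3, 269 and 5924 CPM in GFP-negative replicates, 760, 6048, 3310 and 303 CPM in GFP-medium and 1955, 1290, 1221 and 1202 CPM in bulk replicates. Both, described here after their values were seen, occurred in every library, at like levels in bulk and with different replicates high in each.

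At 43304251 the contrast was larger. The gRNA chr8:43304251-43304272 took 101474 CPM in GFP-medium replicate 1, which was 55.8% of the counts of the set in that library, and 11.2, 82.3 and 660 CPM in GFP-medium replicates 2 to 4. It had 584, 0, 936 and 1726 CPM in GFP-negative and 2448, 506, 714 and 691 CPM in bulk replicates. Replicate 1 was thus the highest in bulk as well. The gRNA chr8:43304261-43304283, which shares 12 bp with it, was at 0 in all 8 sorted libraries, against 200, 880, 299 and 281 CPM in bulk (at least 41.0-fold lower in GFP-negative cells, adjusted p = 5.89e-04, and at least 23.6-fold lower in GFP-medium cells, adjusted p = 0.00175, both by edgeR). Bulk replicate 2 held the largest part of that bulk mean, so both bounds are for means and are lower in the other replicates.

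In GFP-medium over bulk cells, edgeR called 0 of the 154 tested gRNAs enriched and 23 (14.9%) depleted, against 0% and 19.7% of all 1342. At an unadjusted p under 0.05, edgeR called 1 (0.649%) enriched, against 0.224% of all. It was chr8:43304251-43304272, whose log2 fold change of 5.55 had an adjusted p of 0.0927 in edgeR. With the replicate block it was -0.40 (edgeR adjusted p = 0.939). DESeq2 called 0 enriched and 25 (16.2%) depleted, against 0.596% and 28.5% of all. Limma-voom called 0 and 8 (5.19%), against 0% and 8.87% of all. No gRNA of the 435 had all GFP-medium libraries above all bulk libraries, against 0.255% of all 3918. In 60 of the 435 (13.8%) all GFP-medium libraries lay below all bulk libraries, against 17.6% of all 3918. The median log2 fold change was -0.25, against -1.25 for all tested gRNAs and 0.90 around the 5' end.

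The other gRNAs that led the GFP-medium libraries were likewise carried by 1 or 2 of them. The gRNA chr8:43299664-43299686 had 9.44, 694, 16385 and 94.3 CPM in GFP-medium replicates and 339, 796, 1405 and 793 CPM in bulk. The gRNA chr8:43301876-43301898 had 151, 15556, 0 and 0 CPM in GFP-medium replicates and 123, 735, 322 and 358 CPM in bulk. For both, the GFP-medium replicate with the highest level was also the highest in bulk. The gRNA chr8:43302672-43302693 had 14.2, 8919, 7064 and 741 CPM in GFP-medium replicates, against 924, 1157, 1405 and 716 CPM in bulk, and lay above bulk in 3 of 4 replicates. Their edgeR adjusted p-values were 0.556, 0.318 and 0.524. Among gRNAs depleted in GFP-medium cells, chr8:43303957-43303979 was at 0 in all 8 sorted libraries, against 1924, 217, 345 and 333 CPM in bulk (at least 40.1-fold lower in GFP-medium cells, adjusted p = 0.00803 by edgeR). Bulk replicate 1 carried most of that bulk mean, so the bound is for the mean and is lower in the other replicates.

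The 4 gRNAs with the highest mean level in bulk did not lead in sorted cells as a group. The first, chr8:43303891-43303913, had 14.1, 431, 1161 and 1317 CPM in GFP-negative replicates, 1987, 1816, 24.7 and 60.6 CPM in GFP-medium replicates, against 2001, 2483, 2579 and 1893 CPM in bulk. It was present in all 12 libraries and below bulk in every GFP-negative replicate (edgeR adjusted p = 0.742). The gRNA chr8:43304901-43304923 had 14120, 0, 0 and 0 CPM in GFP-negative replicates, 18.9, 0, 0 and 0 CPM in GFP-medium replicates, against 1771, 1676, 2764 and 2507 CPM in bulk. It was thus found among sorted cells in replicate 1 alone. The log2 fold change of GFP-negative over bulk was 1.02 (edgeR adjusted p = 0.804), and -8.42 with the replicate block (edgeR adjusted p = 0.0338), so the block turned its direction. That of GFP-medium over bulk was -7.69 (edgeR adjusted p = 0.0833), and -13.10 with the block (edgeR adjusted p = 0.00729). The gRNA chr8:43304767-43304788 had 0, 6.15, 0 and 83.3 CPM in GFP-negative replicates, 75.5, 70.8, 535 and 909 CPM in GFP-medium replicates, against 1755, 2230, 1635 and 2635 CPM in bulk. All of its sorted libraries lay below all bulk libraries (adjusted p = 0.0613 for GFP-negative and 0.709 for GFP-medium cells by edgeR, and 0.0352 for GFP-negative cells with the replicate number as a block). The gRNA chr8:43304229-43304251 had 3.52, 0, 885 and 12443 CPM in GFP-negative replicates, 349, 936, 2816 and 222 CPM in GFP-medium replicates, against 3618, 1097, 1428 and 1407 CPM in bulk, and did not pass the test in either comparison (edgeR adjusted p = 0.774 and 0.954).

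Between the sorted populations, edgeR called 8 of the 154 gRNAs (5.19%) enriched in GFP-negative over GFP-medium cells, against 3.65% of all 1342. It called 23 (14.9%) depleted, against 21.9% of all 1342. With the replicate number as a block, both counts were 0, and libraries of the same number did deviate together. DESeq2 called 1 (0.649%) and 31 (20.1%), against 2.98% and 27.1% of all. Limma-voom called 0 and 32 (20.8%), against 1.12% and 29.6% of all. The 1 enriched gRNA in DESeq2, chr8:43302599-43302621, was not among the 8. In the middle gene body 5 gRNAs of the 435 (1.15%) had all GFP-negative libraries below all GFP-medium libraries, against 0.536% of all 3918. Listed here after their values were seen, they are chr8:43299884-43299906, chr8:43300139-43300160, chr8:43300594-43300616, chr8:43302687-43302708 and chr8:43303325-43303347. The last was found in 2 GFP-negative libraries, chr8:43300139-43300160 in 4 and the others in none.

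Each of the 8 enriched gRNAs rested on 1 GFP-negative library, which held 92.8% to 100% of its summed GFP-negative CPM. The gRNA chr8:43299932-43299954 had 3.52, 0, 0 and 6130 CPM in GFP-negative replicates and no count in GFP-medium ones, against 354, 265, 230 and 588 CPM in bulk. It was at least 87.3-fold higher in GFP-negative than in GFP-medium cells (adjusted p = 0.0294 by edgeR, 0.279 with the replicate block). The gRNA chr8:43300260-43300282 had 0, 0, 0 and 6305 CPM in GFP-negative replicates, 0, 0, 0 and 6.73 CPM in GFP-medium replicates, and chr8:43299727-43299749 had 0, 5232, 0 and 0 CPM in GFP-negative replicates, 0, 0, 0 and 13.5 CPM in GFP-medium replicates. Their log2 fold changes were 9.15 and 9.14 (adjusted p = 0.0452 and 0.0453 by edgeR, 0.421 and 1 with the replicate block).

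Among the 23 depleted gRNAs, 13 had over 90% of their summed GFP-medium CPM in 1 library, and 19 had no GFP-negative count. The gRNA chr8:43302687-43302708 was at 0 in all GFP-negative libraries and at 2690, 116, 5064 and 397 CPM in GFP-medium ones, against 1093, 976, 1819 and 435 CPM in bulk. Its GFP-medium level exceeded bulk in replicates 1 and 3 and lay below it in replicates 2 and 4. It was at least 204-fold lower in GFP-negative than in GFP-medium cells (adjusted p = 0.0253 by edgeR, 0.183 with the replicate block). It shares 7 bp with chr8:43302672-43302693 above, which was at 2516, 22.6, 0 and 1639 CPM in GFP-negative cells. The gRNA chr8:43297458-43297480 was at 0 in GFP-negative libraries and at 5749, 0, 0 and 6.73 CPM in GFP-medium ones, against 816, 892, 576 and 742 CPM in bulk. The gRNA chr8:43301941-43301963 was at 0 in GFP-negative libraries and at 4026, 0, 0 and 155 CPM in GFP-medium ones, against 1078, 277, 438 and 563 CPM in bulk. Their adjusted p-values were both 0.0253 by edgeR, and 0.234 and 0.215 with the replicate block.

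The same replicate number linked the sorted populations to a modest degree. Of the middle gene body gRNAs found in a GFP-negative library, 69.8% to 88.9% were also found in the GFP-medium library of the same number, over 4 pairs, which is 50.7% to 62.5% of the gRNAs in those GFP-medium libraries. For libraries of different numbers, over 12 pairs, the shares were 54.2% to 84.9% of the GFP-negative and 39.8% to 58.9% of the GFP-medium lists. Between 2 GFP-negative libraries, which always differ in number, 32 to 42 gRNAs were shared, 48.6% to 67.9% of the first and 44.4% to 59.2% of the second list.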

How the data were processed

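The libraries were made by PCR from genomic DNA, per the labels' protocols, and the authors deposited raw gRNA counts per library. The submitters' processing notes name the build mm10 for the positions. The counting program was not given in the sources used here. Gene spans came from RefSeq (GRCm38.p6), and Zfp42 was taken to lie on the minus strand as in its promoter table. Groups and replicate numbers came from sample titles. The members, lists and comparisons were chosen with earlier results of these data known.

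CPM and shares were computed from the counts without the placeholder guide. The whole Zfp42 table was tested in 1 fit over 12 libraries with edgeR 4.0.16 in R 4.3.3 (filterByExpr with a minimum count of 10, TMM, robust quasi-likelihood F test, 2-sided, Benjamini-Hochberg adjustment at 0.05), with DESeq2 1.42.0 and limma-voom of limma 3.58.1 as alternatives. Alternative totals, scalings, filters, blocks and left-out libraries were also tried. The edgeR step was tested on simulated data with a smaller spread between libraries than these data, whose fitted coefficient of variation was 1.90. That test therefore gives no power or error rate for these libraries. Same-numbered libraries deviated together, with correlations of deviations from group means over gRNAs of 0.114 to 0.261. Those for different numbers were all below 0, which subtracting the group means itself favours. The labels give each number to 1 replicate of the line. The edgeR, DESeq2 and limma-voom fits held no term for this number, except where the replicate block is named. Table totals of 39096 to 487732 counts set the depth. Reads carry no molecular identifiers in the labels, so floors cover counting error only.

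Named gRNAs are the 4 with the highest mean share in each population, up to 3 per comparison and direction with the largest fitted change among those past edgeR's test, up to 4 with all sorted libraries above all bulk libraries (there were none) and those at the edges of the region. Others are named as chosen after their values were seen.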

Additional observations from a re-analysis of the deposited data

Results flagged for a closer look

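Of 102 groups of 4 libraries checked (the summed share and 8 tile shares of the set and the CPM of each named gRNA, in each population), 26 had 1 library far from the other 3 by Dixon's 95% criterion for 4 values. Chance flags about 1 in 20 groups of normally distributed values that were not picked by size. Of the 102 groups, 27 are shares, and the others are gRNAs named mostly for high means or large fitted changes. Such a choice favours gRNAs with 1 high library, so the number flagged cannot be set against chance. The criterion also flags a group in which 3 libraries are at or near 0.

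Of the shares, the tile at 43304000 stood out, with 11.3% of counts in GFP-medium replicate 1 and 2.93% in bulk replicate 1. In GFP-negative cells the library that stood apart was replicate 1 for chr8:43299695-43299717 (18959 CPM) and chr8:43304901-43304923 (14120 CPM), and replicate 2 for chr8:43299727-43299749 (5232 CPM). It was replicate 4 for chr8:43304229-43304251 (12443 CPM), chr8:43300260-43300282 (6305 CPM), chr8:43299932-43299954 (6130 CPM), chr8:43299664-43299686 (5293 CPM) and chr8:43304767-43304788 (83.3 CPM).

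In GFP-medium cells it was replicate 1 for chr8:43304251-43304272 (101474 CPM), chr8:43297458-43297480 (5749 CPM), chr8:43301941-43301963 (4026 CPM) and chr8:43304901-43304923 (18.9 CPM), and replicate 2 for chr8:43301876-43301898 (15556 CPM) and chr8:43304189-43304210 (2498 CPM). It was replicate 3 for chr8:43299664-43299686 (16385 CPM), chr8:43304412-43304433 (5039 CPM) and chr8:43304135-43304157 (3985 CPM), and replicate 4, at 1 or 2 counts, for chr8:43296999-43297021 (13.5 CPM), chr8:43299727-43299749 (13.5 CPM) and chr8:43300260-43300282 (6.73 CPM). In bulk it was replicate 1 for chr8:43304229-43304251 (3618 CPM), chr8:43304251-43304272 (2448 CPM) and chr8:43303957-43303979 (1924 CPM), and replicate 2 for chr8:43304261-43304283 (880 CPM).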

How the results depend on the processing

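The cause of the changes below was not tested. The summed log2 share of GFP-negative over bulk, 0.13, became 0.51 without GFP-targeting gRNAs and 1.42 relative to gRNAs outside the gene and the 5' end. It was 0.12 with the replicate block, 0.31 with the placeholder guide in the total and 0.05 without its leading gRNA. With a replicate left out it was 0.06 to 0.21. GFP-negative over GFP-medium, 0.10, became 1.15 relative to the same gRNAs and 0.61 in replicates 3 and 4 alone (-0.30 in replicates 1 and 2). GFP-medium over bulk, 0.03, was -0.03 with the replicate block, 0.19 with the placeholder guide in the total and -0.29 without its leading gRNA. In replicates 1 and 2 alone it was 0.34, and in replicates 3 and 4 alone -0.39.

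No setting called a gRNA of the middle gene body enriched in GFP-negative over bulk cells, with 0 also when any library was left out. The 45 depleted were 29.2% of the tested gRNAs of the set, against 44.6% of all 1342 tested. They became 23 in limma-voom (14.9%, against 20% of all), 76 without a filter and 59 with the replicate block. With a library left out they were 42 to 65. Shares over all gRNAs are given only for the edgeR fit without a block, DESeq2 and limma-voom. The other counts here and below show how calls moved with the setting and are no result about the set. In GFP-medium over bulk cells the 23 depleted were 14.9% of the tested gRNAs of the set, against 19.7% of all. They became 8 in limma-voom (5.19%, against 8.87% of all), 50 without a filter and 33 with the replicate block. With a library left out they were 19 to 34. There 1 gRNA, chr8:43304251-43304272, became enriched with TMMwsp, and the count with a library left out was 0 to 1, with 1 when GFP-negative replicate 2, GFP-medium replicate 3 or GFP-medium replicate 4 was left out.

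The calls of GFP-negative over GFP-medium cells were the least stable. The 8 enriched became 0 with the replicate block, 0 in limma-voom, 0 with only the 2 populations in the fit, 1 in DESeq2, 1 with replicates 1 and 2 against 3 and 4 as a block and 5 with DESeq2 size factors. With a library left out they were 0 to 9: 0 when GFP-negative replicate 1 or GFP-medium replicate 2 was left out, 1 when GFP-medium replicate 3 or 4 was, and 5 when GFP-medium replicate 1 or bulk replicate 1 was. The 23 depleted became 0 with the replicate block, 0 with only the 2 populations and 13 with the block of replicates 1 and 2 against 3 and 4, and were 0 to 32 with a library left out, 0 without GFP-negative replicate 1.

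Over 12 fold changes of named gRNAs and 242 alternatives, 198 kept direction and call and 42 lost the call. The other 2 reversed, both GFP-negative over GFP-medium. With a library left out, chr8:43299727-43299749 ranged over -2.47 to 12.02, the low end without GFP-negative replicate 2, and chr8:43300260-43300282 over -1.69 to 11.09, the low end without GFP-negative replicate 4. One count is worth 2.05 to 3.97 CPM in GFP-negative, 3.73 to 8.23 CPM in GFP-medium and 12.1 to 25.6 CPM in bulk libraries, which limits low values.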
